A study of Homo sapiens with 6 samples.

Results

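The 10 genes described here are called the feedback genes of the RAS-ERK pathway. The negative regulators among them are the phosphatase genes DUSP1, DUSP4, DUSP5 and DUSP6 and the Sprouty genes SPRY1, SPRY2 and SPRY4. So are the Sprouty-related genes SPRED1 and SPRED2. The remaining gene, ETV5, encodes a transcription factor that ERK induces. All 10 genes were chosen by symbol, and each symbol matched 1 row of the count table. All were among the 15202 genes tested of 35716 in the table. Their mRNA was quantified by poly(A)-selected sequencing of MIA PaCa-2, a long-established line of human pancreatic ductal carcinoma cells, with 3 libraries of untreated cells kept in DMEM with serum for 24 h and 3 of cells given 10 nM triptolide for 24 h. The labels give the genotype of both groups as wild type, and no agent other than triptolide. The series' design text calls the triptolide cells the control group, and the groups here follow each sample's treatment label. Whether the 3 libraries of a group are separate cultures is not in the labels, and p-values therefore rest on a spread between libraries that may be technical.

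Growth factor receptors switch on RAS, which activates the kinases RAF, MEK and ERK in turn. Active ERK induces genes whose products shut the pathway down again: the DUSP phosphatases remove the activating phosphates from ERK and related kinases, and the Sprouty and SPRED proteins act further up, between the receptor and RAF. Several of these mRNAs are short-lived, so their level is widely read as a measure of current ERK output. Triptolide is a plant diterpenoid that blocks initiation by RNA polymerase II through XPB, a helicase of TFIIH.

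No feedback gene had a fitted difference above 1.46-fold in either direction, but the 95% intervals reached further, up to 2.19-fold for DUSP4. SPRY1 fell with triptolide, by 1.46-fold, and was the only one of the 10 to pass the test, while 0 rose. That is 10% of the members, beside 15.9% of all tested genes called in either direction, 10.0% higher and 5.82% lower. DUSP6, DUSP4, SPRED2 and ETV5 had higher levels in every triptolide library than in any untreated one, and SPRY2 and SPRED1 lower levels, but none of these 6 passed. With SPRY1 that makes 7 of 10 members whose groups did not overlap, beside 36.7% of all tested genes. At an unadjusted p under 0.05 in edgeR there were 5 members, beside 30.9% of all tested genes. DESeq2 called 2 members, beside 13.8% of all genes it tested, and limma-voom 1, beside 15.7%. The median log2 fold change was 0.15 over the members and -0.004 over all tested genes.

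Total counts per library ranged from 16302961 to 23262713, and no pair of libraries had counts that agreed within sampling noise. Untreated replicates 1 and 2 were much the closest pair, with a chi-square statistic per degree of freedom of 4.96. All other pairs were at 25.6 to 78.4. Untreated replicate 3 was at 40.8 and 30 against untreated replicates 1 and 2. The epithelial keratin gene KRT8 was at 1378 to 2274 CPM (counts per 1000000 of the TMM-scaled library), while the epithelial adhesion genes EPCAM and CDH1 were at no more than 0.166 CPM in the untreated and 0.28 CPM in the triptolide libraries. Of 6 tested markers of the carcinoma cells 2 fell and 0 rose, and the sum over the 8 listed was 4393 to 6540 CPM untreated and 3250 to 3960 CPM with triptolide. Much of each sum was VIM, which is not an epithelial gene. It was at 1813, 2111 and 2855 CPM untreated and at 1075, 1729 and 1271 CPM with triptolide. The lower sum is therefore not a measure of the epithelial genes alone. Marker genes of other cell types moved with the groups. Of 15 tested placental trophoblast markers 14 rose and 0 fell, and the sum over the 20 listed was 19.5 to 20.3 CPM untreated and 573 to 943 CPM with triptolide, highest in triptolide replicate 1. HSD3B1, GCM1, PLAC1 and PAGE4 had 0 counts in the untreated libraries. Of 16 tested fibroblast and mesenchymal markers 10 fell and 0 rose, with summed levels of 1347 to 1713 and 1185 to 1448 CPM over the 20 listed, and FAP and CDH2 had 0 counts with triptolide. Most of each of these sums was COL5A2, at 703 to 940 CPM untreated and 822 to 1027 CPM with triptolide, so they say little about the other genes. FN1, for example, was at 140 to 230 CPM untreated and 11.3 to 35.2 CPM with triptolide. Blood markers rose in 4 of 5 tested, with sums over the 10 listed of 2.99 to 4.04 CPM untreated and 12.7 to 24.4 CPM with triptolide. HBG1, HBG2, CD163 and CD68 were at 0 untreated. Of 4 tested endothelial markers 1 rose and 1 fell, and the sums over the 6 listed, 108 to 154 and 105 to 187 CPM, overlapped. Which cells these marker transcripts came from, and any link to the levels of the feedback genes, were not tested. In bulk RNA, fewer cells of a type and less RNA per cell cannot be told apart, and each difference is one relative to a library's remaining genes.

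The DNA just upstream of 4 of these genes is shown because 2 of the Sprouty genes, SPRY1 and SPRY2, were lower with triptolide while SPRY4 and DUSP1 were close to their untreated level. Each sequence is the 250 bases before the gene's start in RefSeq (GRCh38.p14), written 5′ to 3′ on the gene's own strand. Capitals mark matches, on either strand, to the ETS factor letters CCGGAA, the cyclic AMP response element TGACGTCA, the AP-1 letters TGANTCA or the CArG box bound by serum response factor. The ETS factors are the family to which ETV5 belongs, and ERK phosphorylates several of them.
SPRY1 promoter, chr4:123396545-123396794 (plus strand): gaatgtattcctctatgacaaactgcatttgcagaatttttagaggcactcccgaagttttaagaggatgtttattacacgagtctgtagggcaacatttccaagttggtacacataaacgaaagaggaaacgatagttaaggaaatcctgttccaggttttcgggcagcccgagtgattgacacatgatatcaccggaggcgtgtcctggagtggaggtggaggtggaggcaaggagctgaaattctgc
SPRY2 promoter, chr13:80341127-80341376 (minus strand): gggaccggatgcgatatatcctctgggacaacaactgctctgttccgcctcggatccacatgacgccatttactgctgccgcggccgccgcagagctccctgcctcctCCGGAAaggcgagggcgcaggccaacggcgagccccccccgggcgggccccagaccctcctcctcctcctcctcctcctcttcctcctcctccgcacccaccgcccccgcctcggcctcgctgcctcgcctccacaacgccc
SPRY4 promoter, chr5:142324248-142324497 (minus strand): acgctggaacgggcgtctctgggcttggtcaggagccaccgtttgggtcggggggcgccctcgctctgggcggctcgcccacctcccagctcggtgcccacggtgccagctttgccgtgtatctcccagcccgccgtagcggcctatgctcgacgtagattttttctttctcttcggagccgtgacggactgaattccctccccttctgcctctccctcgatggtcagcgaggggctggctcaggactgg
DUSP1 promoter, chr5:172771196-172771445 (minus strand): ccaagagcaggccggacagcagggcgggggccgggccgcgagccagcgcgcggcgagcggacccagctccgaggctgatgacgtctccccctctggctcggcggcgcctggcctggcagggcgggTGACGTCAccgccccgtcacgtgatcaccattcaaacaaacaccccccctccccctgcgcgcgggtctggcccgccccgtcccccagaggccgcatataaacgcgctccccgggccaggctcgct

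In SPRY2 the capitals are 1 ETS match that starts at position -142, counted from -1 just before the start site, and in DUSP1 they are 1 cyclic AMP response element at -125. The windows of SPRY1 and SPRY4 hold none of the 4 motifs. Sequences were at hand for 7 members and were not used here for DUSP4, DUSP5 and ETV5. Among the 7, 1 held the ETS letters, 1 the cyclic AMP response element, 0 an AP-1 match and 0 a CArG box, beside 14.5%, 1.65%, 6.57% and 1.16% of the 35116 upstream windows of the same length in the table. The GC box GGGCGG was in 4 of 7 (DUSP1, SPRY2, SPRY4 and SPRED1) and in 42.6% of all windows. The letters TATAAA were in 1 of 7, DUSP1, and in 10.7% of all windows. The windows of SPRY1, SPRY2, SPRY4 and DUSP1 held 8, 23, 22 and 30 CpG pairs, beside a median of 11 over all windows. Their share of G or C was 45.6%, 70.4%, 65.6% and 74.4%. A match is a run of letters and not a measured binding site.

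Levels of different genes were set beside each other per length, as CPM per kb of merged exons in GENCODE 29. In untreated cells SPRY4 (48.7 ± 3.94 CPM per kb, SD, n = 3 libraries) and SPRY2 (48.4 ± 2.67) were the most abundant of the 10, and their ranges overlapped. ETV5 (17.9 ± 0.363) and DUSP1 (17 ± 1) came next, also with overlapping ranges, then SPRED2 (8.48 ± 1.63) and SPRY1 (8.4 ± 1.05), which overlapped as well. DUSP5 (6.01 ± 0.227), DUSP6 (1.72 ± 0.0878), SPRED1 (1.49 ± 0.0641) and DUSP4 (0.13 ± 0.0081) followed, each with a range below that of the gene before it. With triptolide the order was the same except that DUSP5 stood before SPRY1, with overlapping ranges. SPRY4 and SPRY2 no longer overlapped, at 52.3 ± 3.56 and 35.5 ± 3.62 CPM per kb.

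**Figure D1:**
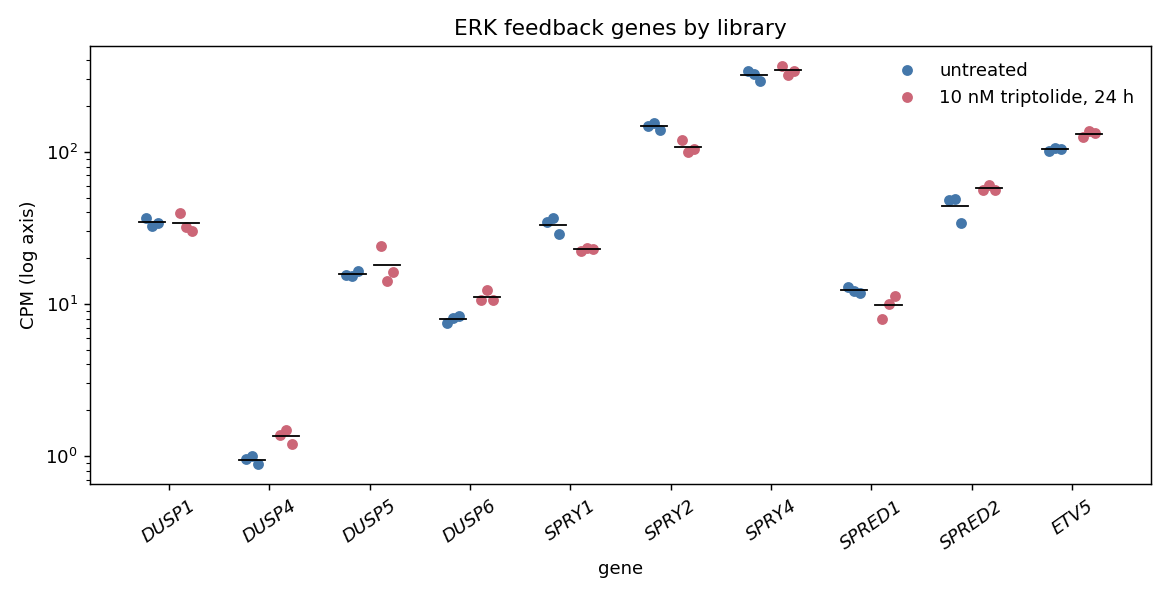
CPM of each of the 10 feedback genes in each library, on a log axis, for 3 untreated libraries (blue) and 3 with triptolide (red), with the group mean as a line. The groups do not overlap in 7 genes, and DUSP1, DUSP5 and SPRY4 are the 3 in which they do.

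Among the phosphatases, DUSP6 (ENSG00000139318) encodes the cytoplasmic enzyme that acts on ERK alone and binds it directly. Its level was 7.51, 8.03 and 8.32 CPM in untreated replicates 1, 2 and 3, and 10.6, 12.3 and 10.6 CPM in the triptolide replicates. All 3 triptolide libraries were above all 3 untreated ones. This was a log2 fold change of 0.49 ± 0.18 (SE), with a 95% interval from 0.10 to 0.88 and an edgeR adjusted p of 0.0854. Without triptolide replicate 1 the adjusted p was 0.0463, and with an offset for GC content 0.0252. In GENCODE 29 an antisense gene, AC024909.2, lies over 40.5% of the merged exon bases of DUSP6. Its mean was 0.163 CPM, and without the strand setting, reads of the pair cannot be told apart.

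DUSP4 (ENSG00000120875), which encodes a nuclear phosphatase, was the least abundant member, with 17, 18 and 16 counts in untreated cells and 22, 34 and 30 counts after triptolide. That is 0.953, 0.997 and 0.881 CPM against 1.39, 1.49 and 1.2 CPM, again without overlap. Among the members with a higher fitted level with triptolide it had the largest fold change, 1.43-fold. Its 95% interval, a log2 fold change from -0.10 to 1.13, was the widest of the 10 (edgeR adjusted p = 0.237).

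DUSP1 (ENSG00000120129) encodes the nuclear phosphatase of the stress kinases p38 and JNK as well as ERK, and is itself a classical immediate early gene. It stood at 36.6, 32.6 and 33.9 CPM untreated and 39.7, 32 and 30.2 CPM with triptolide, so that the highest and the lowest value both came from treated cells. Its log2 fold change was -0.02 ± 0.17 (SE), with an edgeR adjusted p of 0.958. Its 95% interval, -0.39 to 0.35, leaves room for a level down to 0.765 or up to 1.28 times the untreated one. The sign of so small a difference turned with library totals alone (0.04), with ribosomal protein scaling (0.14) and without untreated replicate 1 (0.02), among others. DUSP5 (ENSG00000138166), the nuclear phosphatase specific to ERK, was at 15.4, 15.4 and 16.4 CPM untreated and at 24.1, 14.1 and 16.3 CPM with triptolide. Triptolide replicate 1 stood apart, while replicate 2 lay below the untreated libraries and replicate 3 within their range. Its log2 fold change of 0.20 ± 0.21 (SE, edgeR adjusted p = 0.551) became -0.03 without that library.

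As a share of the summed DUSP level per kb of these 4 genes, DUSP1 made up 68.4 ± 1.68% untreated and 63.9 ± 1.57% with triptolide (SD, n = 3 libraries), without overlap. DUSP6 made up 6.92 ± 0.536% and 9.33 ± 1.91%, and DUSP4 under 1% in every library. The sum itself was 24.9 ± 0.946 and 26.4 ± 4.34 CPM per kb, with overlapping ranges.

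The Sprouty genes encode inhibitors that are recruited to the membrane on receptor stimulation. SPRY1 (ENSG00000164056) was at 34.4, 36.8 and 28.7 CPM untreated and at 22.3, 23.3 and 22.9 CPM with triptolide. The treated libraries lay within a narrow band below every untreated library, and untreated replicate 3 was the nearest to them. The log2 fold change was -0.54 ± 0.17 (SE), with a 95% interval from -0.90 to -0.18 and an edgeR adjusted p of 0.044. SPRY1 did not pass when untreated replicate 1 or 2 was left out, or triptolide replicate 1, 2 or 3 (adjusted p = 0.136, 0.207, 0.0558, 0.0865 and 0.137), and passed without untreated replicate 3 (0.0293). The call also ended with library totals alone (0.0953), ribosomal protein scaling (0.507), no filter on low counts (0.0653), a minimum mean of 5 CPM (0.106) and the replicate number as a block (0.122).

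SPRY2 (ENSG00000136158), whose product binds the ubiquitin ligase CBL and the adaptor GRB2, was at 147, 155 and 139 CPM untreated and at 120, 99.7 and 104 CPM with triptolide. Every treated library was below every untreated one. The log2 fold change was -0.45 ± 0.15 (SE), the 95% interval ran from -0.78 to -0.11, and the edgeR adjusted p was 0.0696. DESeq2 called it (adjusted p = 0.0328), as did edgeR without triptolide replicate 1 (0.0281) and with the GC offset (0.0163).

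SPRY4 (ENSG00000187678), which restrains signalling from receptor tyrosine kinases to ERK, had the most counts of the 10, 5298 to 8555 per library. It was at 343, 326 and 292 CPM untreated and at 368, 321 and 342 CPM with triptolide, and the groups overlapped. The log2 fold change was 0.10 ± 0.15 (SE), with an edgeR adjusted p of 0.696 and a 95% interval of 0.852 to 1.35 times the untreated level.

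The share of each gene in the summed Sprouty level per kb does not depend on how libraries are scaled, unlike the sum itself, and these shares differed between the groups without overlap. SPRY4 was 46.2 ± 1.39% of the sum untreated, between 45.1% and 47.8%, and 55.9 ± 0.654% with triptolide, between 55.3% and 56.6%. SPRY2 went from 45.9 ± 1.38% to 37.9 ± 1.09% and SPRY1 from 7.94 ± 0.505% to 6.18 ± 0.582%. These shares were looked at after the levels had been seen and are given without a test. An exact permutation test of 3 against 3 libraries cannot go below p = 0.1. The summed Sprouty level was 106 ± 7.07 CPM per kb untreated and 93.6 ± 7.01 with triptolide, with overlapping ranges.

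**Figure D2:**
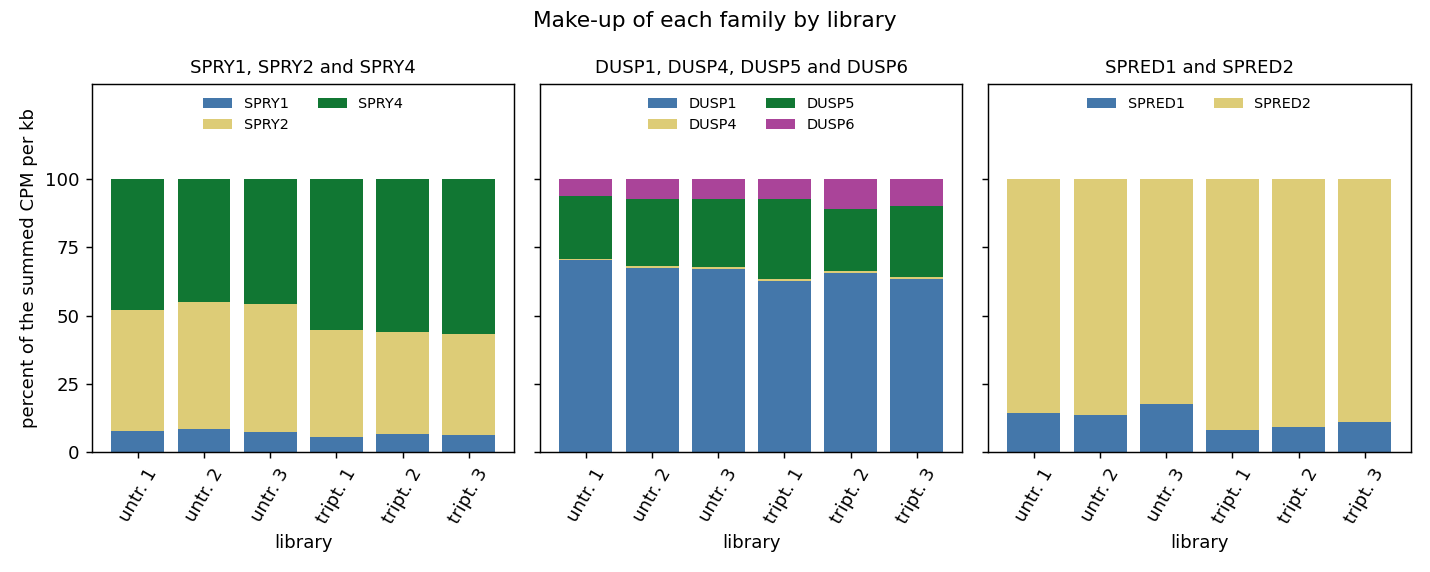
Share of each gene in the summed CPM per kb of its family, in percent, for each of the 6 libraries (untr., untreated; tript., triptolide). SPRY4 takes 45.1% to 47.8% of the Sprouty sum in untreated and 55.3% to 56.6% in triptolide libraries.

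SPRED1 and SPRED2 encode membrane proteins with a Sprouty domain; SPRED1 brings neurofibromin, the product of NF1, to RAS. SPRED2 (ENSG00000198369) was at 48.3, 48.9 and 34 CPM untreated and at 55.9, 60.9 and 55.8 CPM with triptolide. The groups did not overlap, and untreated replicate 3 was well below the other 2. Its fitted log2 fold change was 0.40 ± 0.18 (SE), with a 95% interval from 0.01 to 0.79 and an edgeR adjusted p of 0.157. Without untreated replicate 3 it was 0.23. SPRED1 (ENSG00000166068) was at 12.8, 12.2 and 11.8 CPM untreated and at 8, 10.1 and 11.3 CPM with triptolide, lower in each treated library, with triptolide replicate 1 the lowest. Its log2 fold change was -0.33 ± 0.19 (SE, edgeR adjusted p = 0.267), and -0.19 without that library. SPRED2 made up 84.8 ± 2.28% of the summed level per kb of both untreated and 90.4 ± 1.51% with triptolide, without overlap.

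ETV5 (ENSG00000244405) encodes an ETS transcription factor of the PEA3 group and is induced by ERK and by FGF signalling. It was at 102, 106 and 104 CPM untreated and at 125, 137 and 134 CPM with triptolide, with a coefficient of variation of 2.03% untreated and 4.46% treated and no overlap. In the fit, ETV5 had a log2 fold change of 0.34 ± 0.15 (SE), with a 95% interval from 0.03 to 0.66 and an edgeR adjusted p of 0.134. With the GC offset the adjusted p was 0.0376. A neighbouring gene, DGKG, shares 164 exon bases with it in GENCODE 29 and had a mean of 0.0851 CPM. The other 2 PEA3 genes, ETV1 and ETV4, had log2 fold changes of 0.29 ± 0.22 and 0.12 ± 0.17 (SE) and did not pass (edgeR adjusted p = 0.413 and 0.685).

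**Figure D3:**
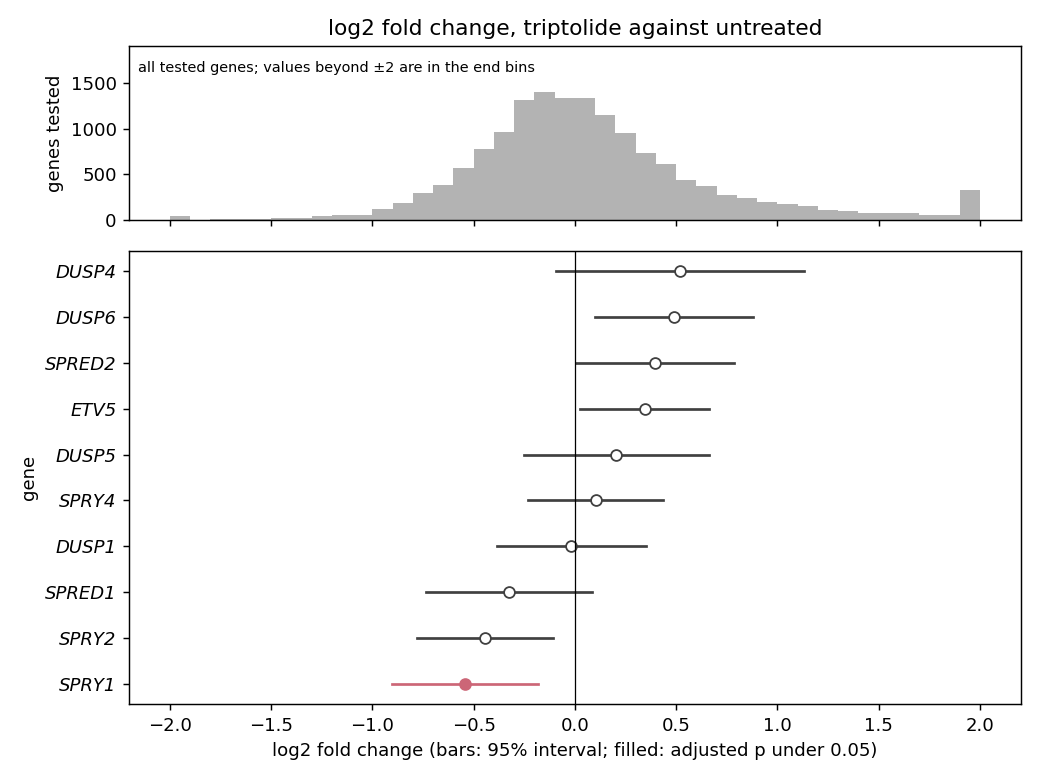
Log2 fold change of triptolide against untreated cells. Below, the 10 feedback genes with 95% intervals, where SPRY1 (filled) is the one with an adjusted p under 0.05; above, the distribution over all 15202 tested genes. The 10 lie between -0.54 and 0.52.

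The members differed in direction. At the ends of their range, SPRY1 lay at the 10.4th percentile of all tested genes by log2 fold change and DUSP4 at the 82.3rd percentile. The sum of all 10 per kb was 158 ± 8.66 CPM per kb untreated and 155 ± 9.56 with triptolide (SD, n = 3 libraries). By the shape of its 6 values (distance between log2 CPM values centred on each gene's mean), DUSP6 was nearest, among 10280 other genes whose mean reached 5 CPM, to LBX2-AS1 (distance 0.076), BFSP1 (0.098) and AGBL5 (0.11). Among the members ETV5 (0.234) and DUSP4 (0.234) were nearest to it and SPRY1 (1.3) the farthest. The members were not held to the minimum of 5 CPM, which DUSP4 does not reach. The prior count of 2 in these log2 CPM values draws the values of a gene with so few counts together.

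**Figure D4:**
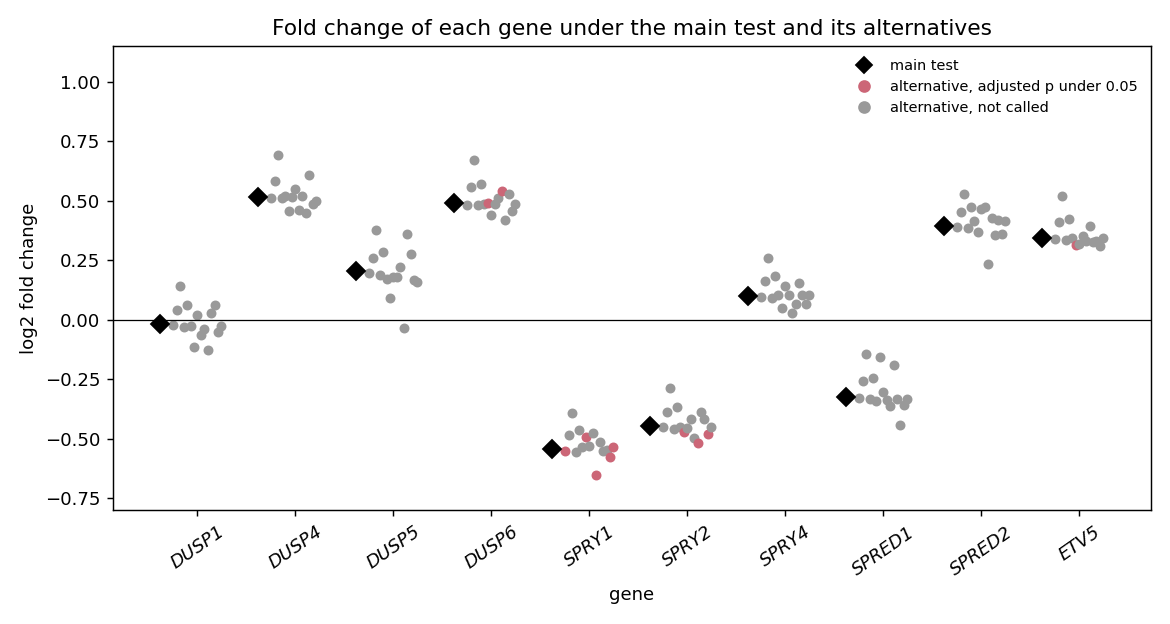
Log2 fold change of each feedback gene in the main edgeR test (black) and under each alternative (dots, red where the adjusted p is under 0.05). DUSP1 has dots on both sides of 0 and DUSP5 has 1 below it, at -0.03; the other 8 genes keep their sign, and red dots occur for DUSP6, SPRY1, SPRY2 and ETV5.

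Other genes of the pathway were taken from 6 lists. The counts of each list stand beside 10.0% of all tested genes that rose and 5.82% that fell. Among 23 other ERK-induced genes, 7 rose and 1 fell, with a median log2 fold change of 0.33. EGR1, an immediate early zinc finger transcription factor, rose from 24.2 ± 1.83 to 62.9 ± 11.2 CPM (SD, n = 3 libraries, edgeR adjusted p = 0.000453). FOS, a subunit of AP-1, rose from 3.69 ± 1.18 to 11.2 ± 2.29 CPM and EGR3 from 0.425 ± 0.114 to 2.08 ± 0.0744 CPM. ARC, an activity-induced gene, rose 3.3-fold to 4.01 ± 0.71 CPM, and PLAUR, IER3 and EPHA2 were the remaining 3 that rose. HMGA2, a chromatin protein gene, fell, with 134 counts over the untreated libraries and 6 over those with triptolide. The cyclin gene CCND1, a target of ERK in the cell cycle, stood at 169 ± 32.5 and 168 ± 22.6 CPM (adjusted p = 0.991). No test compared this list with the feedback genes.

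Of 14 other dual-specificity phosphatase genes tested, 1 rose and 0 fell (median log2 fold change -0.015), and DUSP10 was not tested. The gene that rose, DUSP28, went from 3.18 ± 0.441 to 5.17 ± 0.358 CPM (edgeR adjusted p = 0.0422). With untreated replicate 1 or 2 left out, or triptolide replicate 2 or 3, its adjusted p was from 0.0865 to 0.177. DUSP28 also did not pass with ribosomal protein scaling (0.0627), no filter on low counts (0.0672), the replicate block (0.0817) or DESeq2 (0.0862). The ERK phosphatase gene DUSP7 stood at 129 ± 3.43 and 115 ± 21.7 CPM (adjusted p = 0.542). Among 8 further Sprouty and SPRED genes and their partners, 2 rose and 0 fell, both of low level. SPRY3 was at 0.337, 0.776 and 0.496 CPM untreated and at 1.64, 1.4 and 1.88 CPM with triptolide, a log2 fold change of 1.60 ± 0.35 (SE, edgeR adjusted p = 0.00896). SPRED3 rose from 3.3 ± 0.718 to 5.73 ± 1.07 CPM (adjusted p = 0.0409, and from 0.0609 to 0.143 when untreated replicate 2 or 3 was left out, or triptolide replicate 2 or 3). With ribosomal protein scaling, the GC offset and DESeq2 the adjusted p of SPRED3 was 0.108, 0.0678 and 0.0565. The Sprouty and SPRED partners CBL and NF1 did not pass (adjusted p = 0.513 and 0.579).

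Of 26 genes of the ERK cascade itself, from the adaptor GRB2 to the ERK-regulated ETS factors, 0 rose and 2 fell, with a median log2 fold change of 0.04. ELK4, an ETS partner of serum response factor, was at 47.4, 47.8 and 40.8 CPM untreated and at 15.4, 25.8 and 28.4 CPM with triptolide (log2 fold change -0.96 ± 0.22, SE, edgeR adjusted p = 0.0114, and 0.191 with ribosomal protein scaling). ARAF, a RAF kinase gene, fell from 97.7 ± 11.6 to 65.1 ± 12.7 CPM (adjusted p = 0.0465). It was not called without any one of untreated replicates 1, 2 or 3 or triptolide replicates 2 or 3 (adjusted p from 0.0779 to 0.183), nor with library totals (0.0538), ribosomal protein scaling (0.383), a minimum mean of 5 CPM (0.103) or the replicate block (0.0685). The kinase gene MAPK3 had a log2 fold change of 0.13 ± 0.19 (SE) and did not pass (adjusted p = 0.666).

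Other negative regulators of the pathway gave 1 risen and 2 fallen of 18 tested, with a median log2 fold change of -0.08, and FLRT3 was not tested. ERRFI1, an inhibitor of the EGF receptor that growth factors also induce, fell in all 3 treated libraries, from 784, 768 and 606 CPM to 287, 356 and 368 CPM. Its log2 fold change was -1.09 ± 0.18 (SE, edgeR adjusted p = 0.00169), outside the range of the 10 feedback genes, though that difference was not tested. PTPN2, a tyrosine phosphatase gene, fell from 46.3 ± 3.94 to 28.5 ± 6.6 CPM (adjusted p = 0.0293, and from 0.0535 to 0.0851 when untreated replicate 1, 2 or 3 was left out, or triptolide replicate 3). PTPN2 also did not pass with library totals (0.0581), ribosomal protein scaling (0.325) or a minimum mean of 5 CPM (0.0698). PTPRE rose to 1.27 ± 0.209 CPM with an adjusted p of 0.0497, and did not pass when any 1 library was left out (from 0.0661 to 0.194), with DESeq2 (0.151) or with limma-voom (0.0504).

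Upstream of RAS, 2 of 14 tested genes rose and 3 fell in a list of ligands, receptors and the docking proteins FRS2 and GAB1, with a median log2 fold change of -0.18, and HGF and TGFA were not tested. FGFR3, a fibroblast growth factor receptor gene, rose from 20, 20.2 and 17.5 CPM to 66.8, 36.3 and 41.6 CPM (edgeR adjusted p = 0.0025). FGFR2 rose 1.78-fold to 6.08 ± 0.959 CPM, with an adjusted p from 0.0534 to 0.0718 when untreated replicate 1, 2 or 3 was left out, or triptolide replicate 3, and of 0.0754 with ribosomal protein scaling. The ligand genes FGF2 and AREG fell, to 23.4 ± 5.61 CPM from 43.5 ± 6.97 and to 24.5 ± 0.511 CPM from 38.2 ± 4.02 (adjusted p = 0.014 and 0.0188). FGF2 had an adjusted p of 0.0553 without untreated replicate 2, and AREG from 0.0528 to 0.0851 when untreated replicate 1 or 2 was left out, or triptolide replicate 3. Ribosomal protein scaling also ended both calls (0.232 for FGF2 and 0.348 for AREG), and the replicate block that of AREG (0.0516). The receptor gene MET fell from 31.2 ± 5.05 to 20.3 ± 2.73 CPM (adjusted p = 0.04, and from 0.056 to 0.149 without any one library other than untreated replicate 3). MET also did not pass with library totals (0.0993), ribosomal protein scaling (0.468), a minimum mean of 5 CPM (0.102) or the replicate block (0.0654). The EGF receptor gene EGFR did not pass (log2 fold change -0.71 ± 0.23, SE, adjusted p = 0.0542).

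**Figure D5:**
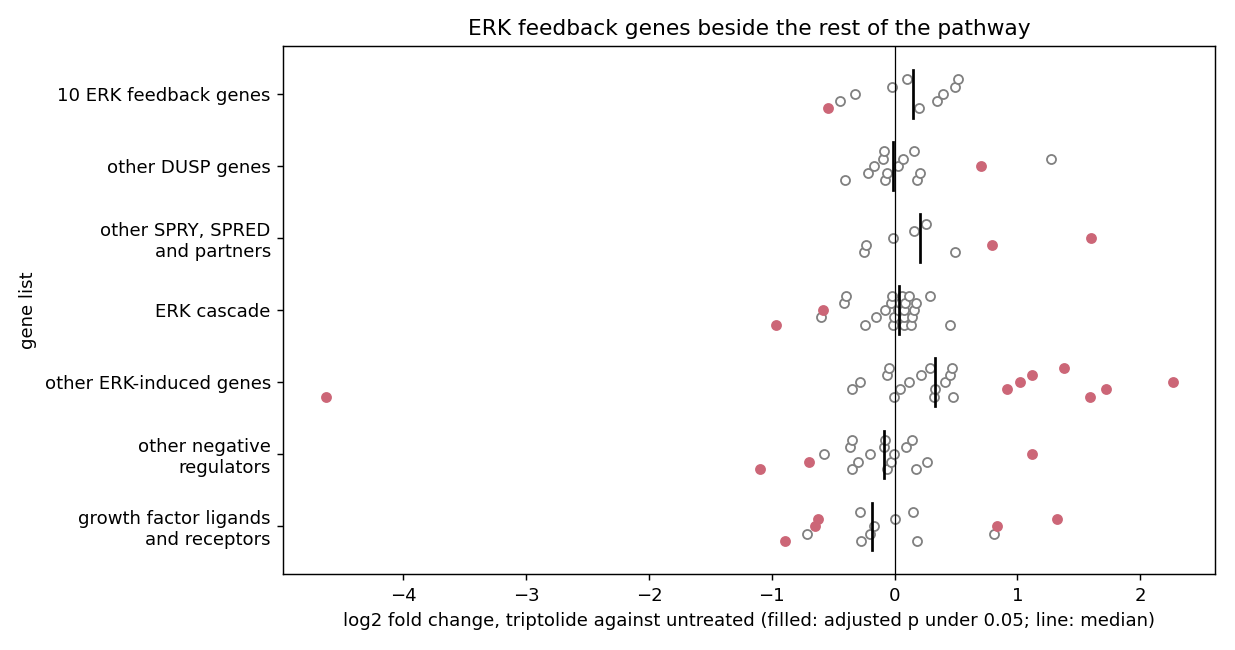
Log2 fold change of each tested gene of the 7 lists, with the list's median as a line and genes with an adjusted p under 0.05 filled. The 10 feedback genes lie between -0.54 and 0.52, and other ERK-induced genes between -4.63 and 2.27.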

How the data were processed

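The authors deposited raw counts, 1 whole number per Ensembl gene and library. Per the submitters' processing notes, the tools used included the aligner HISAT2 and the read counter featureCounts, without versions. Build, annotation release, strand setting and handling of multi-gene reads were not given in the sources used here. Of 35716 IDs, 35639 were matched to symbols by ID. Exon lengths and GC content (for 99.2% of tested genes) were taken from GENCODE 29, and upstream sequences from RefSeq.

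Genes kept by filterByExpr (15202) were tested with edgeR 4.0.16 in R 4.3.3 by quasi-likelihood F-tests (glmQLFit, glmQLFTest) after TMM normalization, in a model of treatment alone, and p-values were adjusted over all of them by Benjamini-Hochberg. Genes with an adjusted p under 0.05 are said to have risen or fallen. CPM was computed on TMM-scaled library sizes. Standard errors come from the fold change and its F statistic. Named genes were the 10 members, up to 4 per direction and list by adjusted p, and the 3 genes nearest to DUSP6; others named in the text were chosen after their values were seen. Some genes of the lists are not reported here. Members and lists were chosen with earlier results of these data known.

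Alternatives were RLE factors, library totals, ribosomal protein scaling, no filter on low counts, a minimum mean of 5 CPM, limma-voom (limma 3.58.1), DESeq2 1.42.0, a replicate block, a GC offset and each library left out. The fit was tested on simulated data with planted changes larger than those of the feedback genes. That run therefore cannot show whether changes of their size would be detected. Figures were drawn with matplotlib 3.10.9.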

Additional observations from a re-analysis of the deposited data

How the results depend on the processing

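Over all genes, 1527 rose and 884 fell. A minimum mean of 5 CPM gave 584 and 336, ribosomal protein scaling 133 lower and the GC offset 1791 lower. With each library left out, 953 to 1580 rose and 407 to 1034 fell, the lowest counts without untreated replicate 2. The share of calls that were higher was 63.3%, and 73.8% with library totals, 90% with ribosomal protein scaling (which moved the median of all genes to 0.174), 53.6% with the GC offset and 53.1% with DESeq2.

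Among the 10 feedback genes, 0 rose and 1 fell. Leaving out each library gave 0 to 1 risen and 0 to 1 fallen. Library totals, ribosomal protein scaling, no filter on low counts, a minimum mean of 5 CPM and the replicate block each gave 0 fallen. The GC offset gave 2 risen and 2 fallen, beside 25.4% of all genes called, and DESeq2 gave 2 fallen, beside 13.8%. The log2 fold change of SPRY1 was -0.483 with library totals, -0.39 with ribosomal protein scaling, -0.553 with no filter on low counts, -0.464 with a minimum mean of 5 CPM and -0.536 with the replicate block, none of which passed, and -0.65 to -0.474 with each library left out. Its adjusted p over all alternatives was 0.0144 to 0.507, and 5 of 15 called it. DUSP6, SPRY2 and ETV5 passed with the GC offset at 0.491, -0.469 and 0.315, and SPRY2 with DESeq2 at -0.481. With each library left out DUSP6 ran from 0.42 to 0.541, SPRY2 from -0.517 to -0.387, DUSP1 from -0.128 to 0.062 and DUSP5 from -0.033 to 0.36. DUSP1 turned to 0.04 with library totals, 0.14 with ribosomal protein scaling and 0.063 with a minimum mean of 5 CPM, and to 0.021, 0.029 and 0.062 without untreated replicate 1, triptolide replicate 2 and triptolide replicate 3. The cause of these changes was not tested. Of 149 values of the members under alternatives, 126 kept both direction and side of the threshold. DUSP1, DUSP5, SPRY4, SPRED1, SPRED2 and DUSP4 were called under none. DUSP4 has no value with a minimum mean of 5 CPM.

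Of the 18 genes named from the other lists, for which the same alternatives were added after seeing the data, SPRY3, EGR1, EGR3, ARC, FOS, HMGA2, ERRFI1 and FGFR3 passed under every alternative that kept them. The other 10 each lost the call under at least 1. FGF2, AREG, ELK4, ARAF, MET, PTPN2, FGFR2, DUSP28 and SPRED3 did so with ribosomal protein scaling, and PTPRE with each library left out in turn, DESeq2 and limma-voom. Same-numbered libraries did not deviate together (correlations of 0.029, -0.041 and -0.439 over 15202 genes). With 3 libraries per group, deviations from a group mean depend on one another, so the values cannot show whether libraries were paired. The replicate block called 1523 higher and 856 lower. Depth was lowest for DUSP4, with 51 counts over the untreated and 86 over the triptolide libraries.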
